A study of Mus musculus with 18 samples.

Results

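Regulators and markers of hair follicle stem cells, 10 genes in all, were followed through chemical skin carcinogenesis in mouse epidermal cells with or without Zfp36, the gene of the mRNA decay factor tristetraprolin (TTP). The genes were chosen by name, with earlier results of these data known. All 10 were found among the 52636 genes of the count table. Lhx2, Sox5 and Tbx1 had been seen to change by stage or genotype in these same libraries, so their values are given here as a description, with no test. The other 7, Sox9, Tcf7l1, Nfatc1, Foxc1, Cd34, Lgr5 and Lgr6, were tested.

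RNA was sequenced from epidermal cells sorted as EpCAM+ CD45- CD140a- CD31-, although whole skin is the labelled source. The 3 stages were skin of mock-treated mice (mock skin), skin without tumors beside the papillomas of mice given DMBA and then repeated TPA (treated skin), and the papillomas (tumors). DMBA mutates the epidermis and TPA, a phorbol ester, drives initiated cells to grow. All mice were adult and of C57BL/6 background, and each stage was sampled in Zfp36 fl/fl animals, with floxed alleles and no Cre, and in Zfp36 ΔK14 littermates, in which a human keratin 14 promoter drives Cre and removes the gene from keratinocytes. That promoter is active in the basal layer of the epidermis and of the hair follicle, so the stem cells themselves lie within the deleted population. The number of mice behind each library is not stated, and p-values therefore measure the spread between these libraries, which may be technical in part.

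Each of the 6 groups had 3 columns of counts. Columns 2 and 3 of the mock ΔK14 group were identical in all 52636 genes and were counted as 1 library, which left 17 libraries and n = 2 in that group. Total counts per column ran from 2808550 to 9617985. Zfp36 was at 152 to 716 CPM (a gene's count relative to the scaled size of its library) in the fl/fl libraries and at 10.1 to 38.6 CPM in the ΔK14 libraries. The sort was checked with marker genes. Epcam was never under 87.9 CPM and Trp63 never under 479 CPM. The 5 leukocyte genes summed to 7.66 to 19.8 CPM in mock skin, 8.11 to 174 CPM in treated skin, 57.6 to 85.2 CPM in ΔK14 tumors and 13.1 to 31.1 CPM in fl/fl tumors. Most of that sum was Cd74, at 172 CPM in treated ΔK14 replicate 3, while Ptprc reached at most 1.51 CPM and Cd3e at most 0.652 CPM. The fibroblast collagen Col1a1 reached 727 CPM in 1 library, and the 6 fibroblast genes summed to 377 to 1678 CPM in skin and to 30.4 to 386 CPM in tumors. In bulk RNA, fewer cells of a type and less RNA per cell cannot be told apart.

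Hair follicle stem cells rest in the bulge, the lower end of the permanent follicle, and rebuild the growing follicle at each hair cycle. Lhx2, Sox9, Tcf7l1, Nfatc1, Foxc1, Tbx1 and Sox5 are transcription factors that specify these cells, hold them in place or keep them quiescent. CD34 marks the mouse bulge at the cell surface, and Lgr5 and Lgr6 are R-spondin receptors that amplify Wnt signaling, Lgr5 in the lower bulge and hair germ and Lgr6 in the upper follicle and interfollicular epidermis. Papillomas of the DMBA and TPA protocol are known to hold CD34+ and Sox9+ tumor cells.

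The libraries differed in the RNA of other cells of the follicle, which bears on every member. A list of 10 genes of the hair matrix and inner root sheath, among them the keratins Krt71 and Krt25, summed to 1827 CPM in mock ΔK14 replicate 1 and to 1829 CPM in mock fl/fl replicate 1. The other 3 mock libraries were at 24.5 to 35.7 CPM. Treated skin was at 427 to 1218 CPM and tumors at 7.22 to 85.2 CPM. Mock replicate 1 of each genotype thus stood apart from the rest of its group, and the treated libraries lay between. The 5 melanocyte genes were also high in those mock libraries, at 279 and 319 CPM against 41.1 to 93.3 CPM in the other mock libraries. Tumors were low, at 8.85 to 38.2 CPM. Treated skin did not lie between, at 51.6 to 366 CPM. There ΔK14 replicate 1 was above both of those mock libraries, and some others were within the range of the rest. Dcn, a gene of fibroblasts and the dermal papilla, was high in the same mock libraries, at 976 and 845 CPM against 47.1 to 97.2 CPM in the other mock libraries. Krt15, a keratin of the bulge and basal layer, was at 288 CPM and 265 CPM in mock replicate 1 against 1539 to 2536 CPM in the other mock libraries. Calls that rest on mock skin are given with and without replicate 1 where it changes them, and the part of matrix, melanocyte, fibroblast or leukocyte RNA in any result was not tested.

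The targets of TTP carry AU-rich elements downstream of their coding sequence. In the longest annotated 3′ untranslated region (GENCODE M21, GRCm38), 6 of the 10 members held at least 1 copy of the heptamer TATTTAT, against 27.4% of 21062 genes. These regions were 604 to 4839 bases long in the members, with a median of 1976.5, against a median of 1085 over all genes, and a longer region holds more chance matches. Sox9 was the only member with the nonamer TTATTTATT, which 7.58% of genes held. Tcf7l1, Nfatc1, Foxc1 and Cd34 held no heptamer. The sites are shown because Zfp36 is the gene removed in the ΔK14 mice, with the motif in capitals and its flanks in lower case, written on the strand of the gene. They lie at chr2:38369515-38369535 (Lhx2, plus strand), chr11:112786752-112786774 (Sox9, plus strand), chr6:143828921-143828941 (Sox5, minus strand), chr16:18581866-18581886 (Tbx1, minus strand), chr10:115451021-115451041 and chr10:115450519-115450539 (Lgr5, minus strand) and chr1:134985141-134985161 (Lgr6, minus strand). A match is a description and not a binding site.
Lhx2: ctctgtaTATTTATgaccaga
Sox9: gctaaaaTTATTTATTttgtaag
Sox5: aaggcagTATTTATtcagctc
Tbx1: gaagtggTATTTATtgttctc
Lgr5, first site: ggatctgTATTTATttctgag
Lgr5, second site: agacttgTATTTATtgctaca
Lgr6: gcagattTATTTATcaattgt

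Lhx2, a LIM homeodomain factor that keeps bulge cells from differentiating, was nearly absent from tumors of either genotype. In treated skin its level was 57.1, 54.2 and 54.5 CPM in the fl/fl libraries and 55.6, 38.6 and 37.5 CPM in the ΔK14 libraries. Mock skin gave 54.5, 17.5 and 9.67 CPM in fl/fl and 56.0 and 13.3 CPM in ΔK14. In tumors it was 0.502, 3.36 and 0 CPM in fl/fl and 0.447, 0.363 and 0.380 CPM in ΔK14. No tumor library reached the lowest skin library, while the skin groups overlapped each other and the tumor groups overlapped each other.

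The fitted log2 difference of Lhx2 between tumors and treated skin was -5.02 ± 0.64 (SE) in fl/fl and -6.82 ± 0.34 in ΔK14. These rest on few reads. The ΔK14 tumors held 6 reads of Lhx2 in all, against 828 in treated skin, a ratio of 109.9-fold with a 95% counting interval of 50.3 to 300.3. The fl/fl tumors held 23 reads against 1190, a ratio of 28.0-fold with an interval of 18.6 to 44.4, and 22 of the 23 came from replicate 2. These intervals cover counting error in the pooled reads only, not the spread between libraries, and are no test of Lhx2. The hair matrix and root sheath genes moved with Lhx2 in some groups only. The 3 tumor libraries of fl/fl were at 24.1, 85.2 and 12.1 CPM for that sum, so replicate 2 was the highest in both. Mock replicate 1 of each genotype and treated ΔK14 replicate 1 were also the highest of their groups in both. In ΔK14 tumors, replicate 2 had the highest sum, 11.6 CPM, and the lowest Lhx2, 0.363 CPM. In treated fl/fl skin, replicate 3 had the highest sum, 1218 CPM, but not the highest Lhx2. Among the 3 mock libraries low in the matrix genes, Lhx2 was at 17.5, 9.67 and 13.3 CPM, above all 6 tumors. The part of matrix RNA in these levels was not tested.

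Sox5, an SRY-box factor without a transactivation domain of its own, differed between the mock libraries as the matrix genes did. It was at 44.5 CPM in mock fl/fl replicate 1 and at 42.8 CPM in mock ΔK14 replicate 1, against 7.27, 2.71 and 2.88 CPM in the other mock libraries. Treated skin gave 32.0, 14.7 and 21.6 CPM in fl/fl and 31.8, 30.9 and 28.1 CPM in ΔK14. Tumors gave 0, 4.28 and 2.29 CPM in fl/fl and 1.79, 2.36 and 1.90 CPM in ΔK14. Treated skin lay above tumors in every library, but of the mock libraries low in matrix genes 2 lay within the range of the tumors and 1, at 7.27 CPM, above it. The log2 difference between tumors and treated skin was -3.15 ± 0.64 in fl/fl and -3.98 ± 0.24 in ΔK14. Against mock skin it was -2.92 ± 1.20 in fl/fl and -3.59 ± 0.94 in ΔK14, and it shrank to -0.95 and -0.54 without mock replicate 1 of each genotype. Exons of Sox5 share 1330 bases with the antisense gene Sox5os1, and whether the counting used strand is not stated.

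Tbx1, a T-box factor of the bulge, was higher in ΔK14 than in fl/fl tumors. Its level was 8.53, 13.7 and 10.8 CPM in fl/fl tumors and 37.8, 36.1 and 41.6 CPM in ΔK14 tumors. In treated skin the order was the opposite, with 44.9, 49.8 and 45.6 CPM in fl/fl and 24.9, 33.4 and 30.9 CPM in ΔK14. Mock skin was lower, at 18.2, 5.89 and 5.22 CPM in fl/fl and 18.7 and 8.29 CPM in ΔK14. The genotypes did not overlap in tumors or in treated skin, and they overlapped in mock skin.

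On the log2 scale Tbx1 differed between ΔK14 and fl/fl by 1.63 ± 0.25 in tumors, by -0.67 ± 0.17 in treated skin and by 0.43 ± 0.73 in mock skin. Between tumors and treated skin it differed by -2.08 ± 0.23 in fl/fl and by 0.27 ± 0.19 in ΔK14. The contrast of those stage differences was 2.36 ± 0.28, ΔK14 minus fl/fl, and it is a description because Tbx1 was chosen for this pattern. Leaving out any 1 of the 6 tumor libraries left the genotype difference between 1.52 and 1.84, a range over the same values for which Tbx1 was chosen. The matrix genes were low in all 6 tumors, and the fl/fl tumor with the most of them, replicate 2, had the highest Tbx1 of its group. Ordered by mean level, treated fl/fl, ΔK14 tumors, treated ΔK14 and mock ΔK14 did not overlap from each to the next, whereas mock ΔK14, fl/fl tumors and mock fl/fl did.

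**Figure D1:**
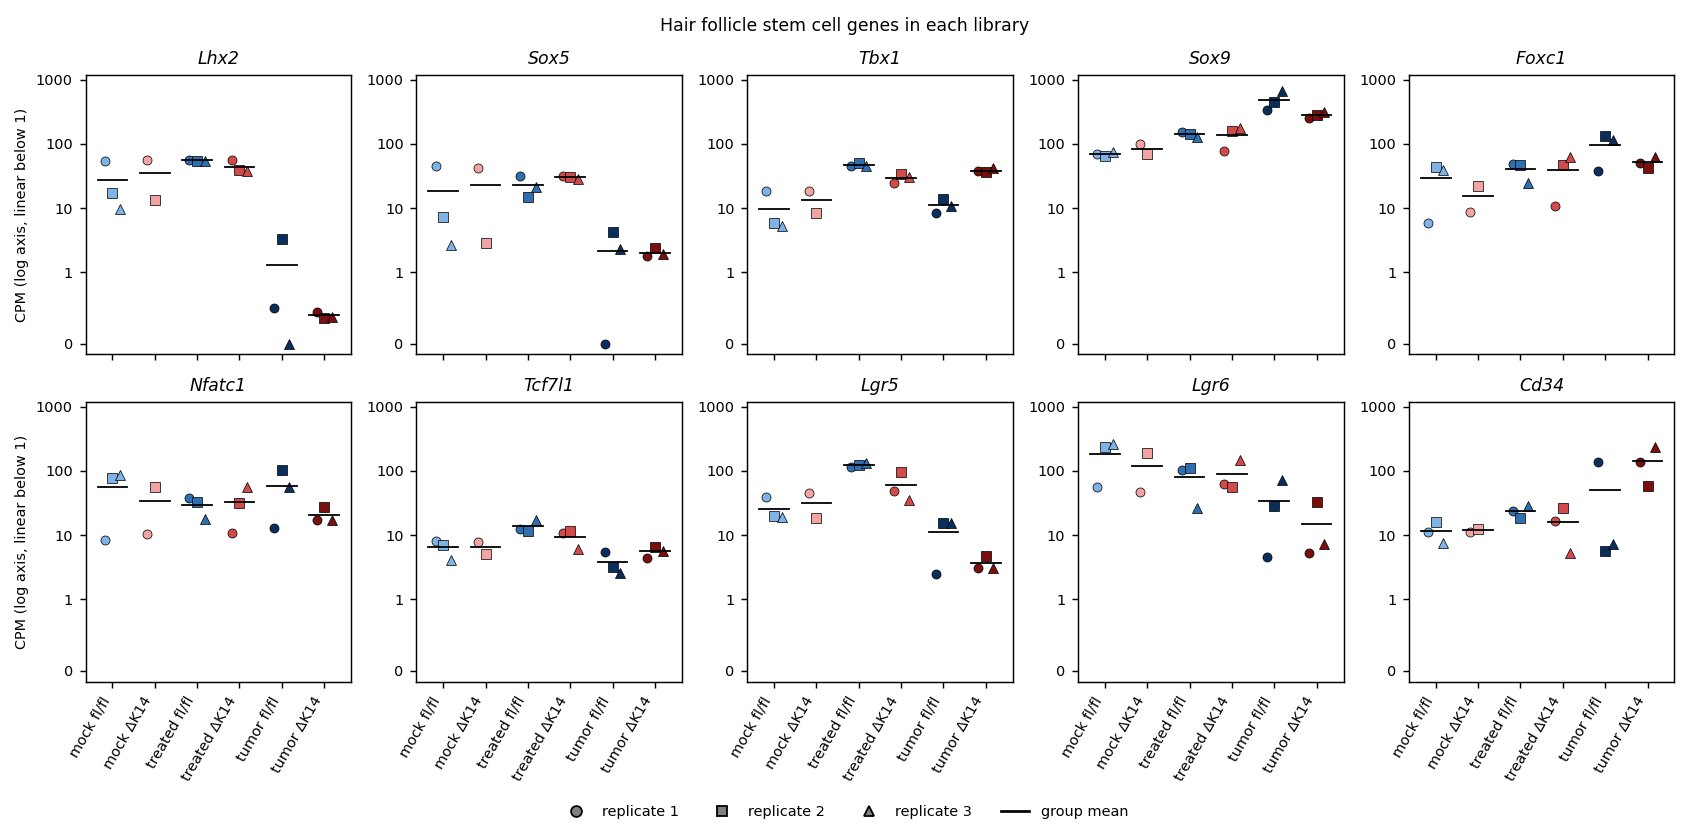
Level of each of the 10 members in CPM (log axis, linear below 1) in the 17 libraries, by stage and genotype, with replicates as symbols and the group mean as a line. Lhx2 was at most 3.36 CPM and Sox5 at most 4.28 CPM in the 6 tumors, Tbx1 was at 36.1 to 41.6 CPM in ΔK14 tumors against 8.53 to 13.7 CPM in fl/fl tumors, and Sox9 was higher in every tumor than in any skin library.

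Among the tested members Sox9, which maintains the bulge and is active in skin tumors, was called higher in tumors than in skin most often. It was at 70.4, 65.8 and 74.9 CPM in mock fl/fl and at 98.0 and 69.6 CPM in mock ΔK14. Treated skin gave 153, 144 and 129.96 CPM in fl/fl and 78.1, 157 and 179 CPM in ΔK14. Tumors gave 339, 453 and 674 CPM in fl/fl and 255, 279 and 314 CPM in ΔK14. Every tumor lay above every skin library, and every fl/fl tumor lay above every ΔK14 tumor. Calls required a change of more than 2-fold and, after Benjamini-Hochberg adjustment over all genes tested, p below 0.05. By that rule Sox9 rose against mock skin in fl/fl by 2.77 ± 0.33 on the log2 scale (edgeR's quasi-likelihood test, adjusted p = 0.0106) and in ΔK14 by 1.66 ± 0.28 (edgeR adjusted p = 0.0180). Against treated skin it rose in fl/fl by 1.76 ± 0.28 (edgeR adjusted p = 0.00569). In ΔK14 the difference of 0.94 ± 0.29 passed the p threshold but not the fold (edgeR adjusted p = 0.0324). The call against mock fl/fl skin was lost without mock replicate 2 or 3 (edgeR adjusted p = 0.0798 and 0.0594), and that against mock ΔK14 skin without any 1 of the tumors (edgeR adjusted p from 0.0588 to 0.0884).

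Foxc1 and Nfatc1, forkhead and calcineurin-dependent factors that hold bulge cells in quiescence, spread widely within groups and were not called in any comparison with all libraries in the fit. Foxc1 was at 5.77, 43.4 and 39.0 CPM in mock fl/fl, 8.66 and 22.4 CPM in mock ΔK14, 48.8, 47.6 and 24.3 CPM in treated fl/fl and 10.8, 46.5 and 62.0 CPM in treated ΔK14. In tumors it was 38.1, 133 and 116 CPM in fl/fl and 50.3, 42.5 and 62.5 CPM in ΔK14. Every group overlapped the next in the order of means. The 3 libraries with the least Foxc1 were among the 4 with the most matrix RNA. Its difference between tumors and mock skin in ΔK14 was 1.66 ± 0.45 (edgeR adjusted p = 0.0524), with the groups apart. It was called at 1.18 without mock replicate 1 (edgeR adjusted p = 0.0257) and at 2.57 without mock replicate 2 (edgeR adjusted p = 0.00164), each with a single mock library left, and by DESeq2 (adjusted p = 0.00677).

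Nfatc1 was at 8.32, 76.4 and 85.1 CPM in mock fl/fl, 10.3 and 57.0 CPM in mock ΔK14, 37.6, 33.1 and 17.9 CPM in treated fl/fl and 10.9, 32.1 and 56.8 CPM in treated ΔK14. Tumors gave 13.04, 104 and 56.4 CPM in fl/fl and 17.2, 27.8 and 16.9 CPM in ΔK14. All 6 groups overlapped their neighbors in the order of means. As with Foxc1, the mock libraries rich in matrix genes held the least. The difference between ΔK14 tumors and mock skin was -0.78 ± 0.65, and it became 0.997 without mock replicate 2, which left only the matrix-rich library for comparison, and -1.49 with a call without mock replicate 1 (edgeR adjusted p = 0.0102), which left only the other.

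Tcf7l1, a repressor that holds Wnt targets off in the bulge, was low throughout. Treated skin gave 12.6, 11.4 and 17.5 CPM in fl/fl and 10.8, 11.6 and 6.09 CPM in ΔK14, and mock skin 8.10, 7.07 and 4.16 CPM in fl/fl and 7.85 and 5.05 CPM in ΔK14. Tumors gave 5.52, 3.21 and 2.62 CPM in fl/fl and 4.47, 6.53 and 5.70 CPM in ΔK14. Tumors and treated skin did not overlap in fl/fl but did in ΔK14. Tcf7l1 fell by 1.97 ± 0.37 on the log2 scale from treated skin to tumors in fl/fl (edgeR adjusted p = 0.00974), and the difference in ΔK14 was -0.87 ± 0.34 (edgeR adjusted p = 0.0719), which became -1.09 and a call without treated ΔK14 replicate 3 (edgeR adjusted p = 0.0197). The difference between these changes was 1.12 ± 0.50 (edgeR adjusted p = 0.362 for the interaction). Tcf7l1 shares 179 exonic bases with the antisense gene Gm15401.

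Lgr5 fell from treated skin to tumors in each genotype. It was at 113, 126 and 131 CPM in treated fl/fl and at 49.0, 96.1 and 35.3 CPM in treated ΔK14. Mock skin gave 39.0, 19.6 and 19.3 CPM in fl/fl and 44.9 and 18.7 CPM in ΔK14. Tumors gave 2.51, 15.6 and 15.7 CPM in fl/fl and 3.13, 4.72 and 3.04 CPM in ΔK14. All 6 tumors lay below all 11 skin libraries, and in treated skin the genotypes did not overlap. The log2 change from treated skin to tumors was -3.39 ± 0.49 in fl/fl (edgeR adjusted p = 0.00396) and -4.15 ± 0.45 in ΔK14 (edgeR adjusted p = 0.000569). Against mock skin the change was -1.20 ± 0.63 in fl/fl (edgeR adjusted p = 0.269) and -3.22 ± 0.47 in ΔK14 (edgeR adjusted p = 0.0122), and the latter call was lost without any 1 of the ΔK14 tumors (edgeR adjusted p from 0.0628 to 0.0646) and was held at -2.39 without mock replicate 1 (edgeR adjusted p = 0.00325). In fl/fl the change without mock replicate 1 was -0.74 (edgeR adjusted p = 0.406). Lgr5 was higher in matrix-rich than in other mock libraries, and all treated fl/fl libraries exceeded the matrix-rich mock libraries. Of the treated ΔK14 libraries, replicate 3, at 35.3 CPM, lay below both matrix-rich mock libraries. Replicates 1 and 2, at 49.0 and 96.1 CPM, lay above them. The part of matrix RNA in its levels was not tested.

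Lgr6 was highest in the mock libraries low in matrix genes and fell in ΔK14 tumors against treated skin. It was at 56.8, 237 and 259 CPM in mock fl/fl, 46.8 and 190.3 CPM in mock ΔK14, 102, 112 and 26.5 CPM in treated fl/fl and 63.3, 56.9 and 147 CPM in treated ΔK14. Tumors gave 4.52, 28.1 and 71.1 CPM in fl/fl and 5.37, 32.7 and 7.41 CPM in ΔK14. The ΔK14 tumors lay below all skin libraries of that genotype, while the fl/fl tumors overlapped fl/fl skin. From treated skin to ΔK14 tumors the log2 change was -2.62 ± 0.65 (edgeR adjusted p = 0.0141), a call lost without tumor replicate 3 (edgeR adjusted p = 0.0598). Against mock skin it was -3.05 ± 0.87 (edgeR adjusted p = 0.0603) and became -3.67 without mock replicate 1 (edgeR adjusted p = 0.00492), where the single mock library left was assumed to vary like the tumors. In fl/fl it was -2.41 ± 0.91 against mock skin (edgeR adjusted p = 0.148), with a call at -2.82 without mock replicate 1 (edgeR adjusted p = 0.0441), and -1.19 ± 0.81 against treated skin (edgeR adjusted p = 0.307).

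Cd34 rose in ΔK14 tumors and split the fl/fl tumors. It was at 11.3, 15.9 and 7.44 CPM in mock fl/fl, 11.1 and 12.6 CPM in mock ΔK14, 23.5, 18.4 and 28.8 CPM in treated fl/fl and 16.7, 26.2 and 5.24 CPM in treated ΔK14. ΔK14 tumors gave 136, 57.5 and 232 CPM, and fl/fl tumors 137, 5.65 and 7.21 CPM. Replicate 1 of the fl/fl tumors lay within the range of the ΔK14 tumors, and the other fl/fl tumors lay below every mock library. Cd34 rose in ΔK14 tumors by 3.49 ± 0.64 on the log2 scale against mock skin (edgeR adjusted p = 0.0207) and by 3.01 ± 0.63 against treated skin (edgeR adjusted p = 0.00721). The call against mock skin was lost without tumor replicate 1 or 3 (edgeR adjusted p = 0.0734 and 0.0587). In fl/fl the difference was 2.05 ± 1.14 against mock skin (edgeR adjusted p = 0.296) and 0.98 ± 1.05 against treated skin (edgeR adjusted p = 0.521), and without tumor replicate 1 these turned to -0.87 and -1.93, the latter a call (edgeR adjusted p = 0.00149). CD34 is also a marker of endothelium, whose 5 genes summed to 15.7 to 29.6 CPM in ΔK14 tumors, 18.3 to 39.7 CPM in fl/fl tumors and 8.62 to 36.0 CPM in skin, with Emcn at 0 in 10 of the 17 libraries. Their part in the Cd34 levels was not tested. Cd34 shares 148 exonic bases with the antisense gene Gm16897.

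**Figure D2:**
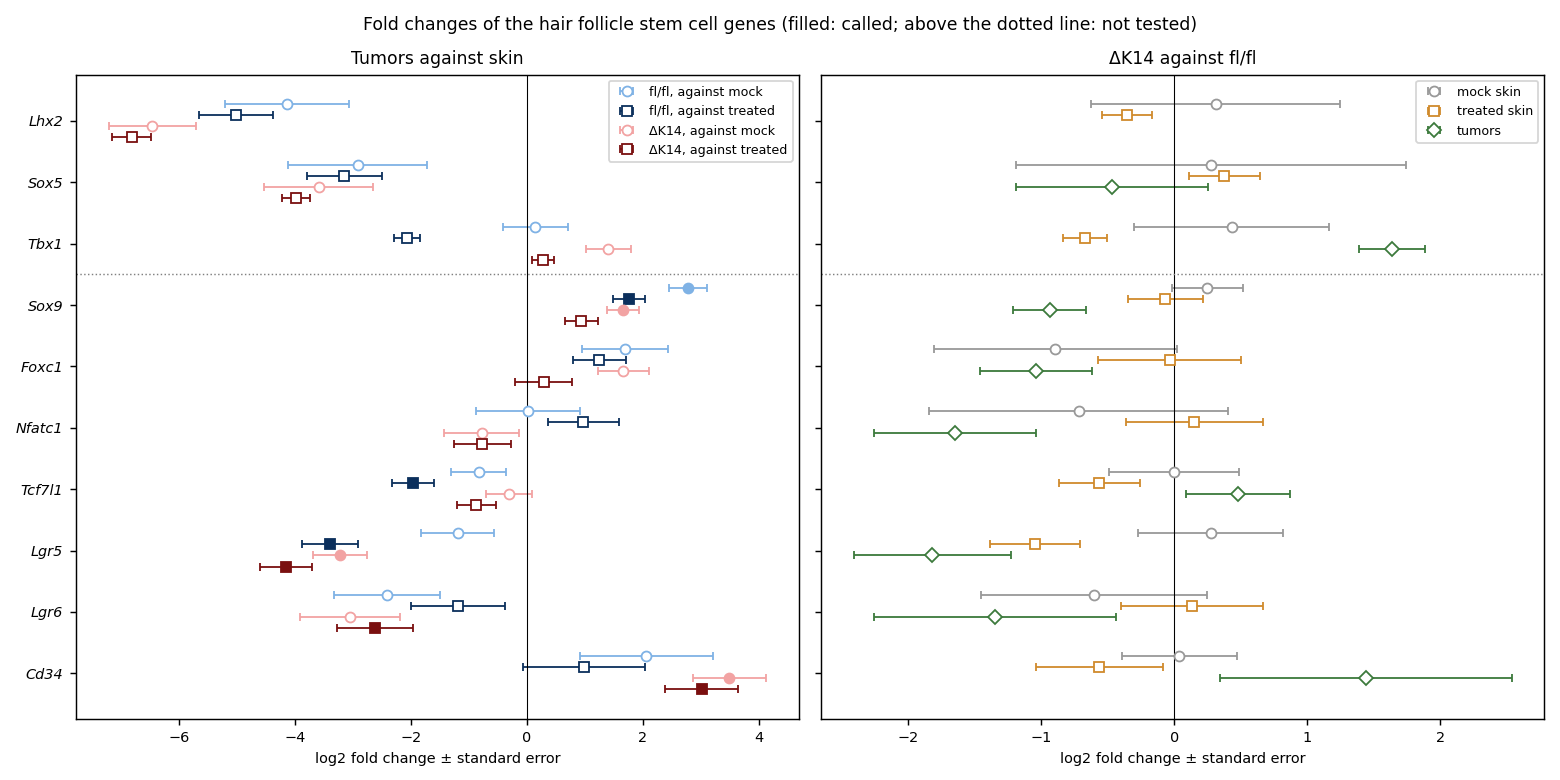
Log2 fold change with standard error of each member, for tumors against skin (left) and ΔK14 against fl/fl at each stage (right), with filled symbols for calls among the 7 tested members and Lhx2, Sox5 and Tbx1 above the dotted line without a test. Sox9, Foxc1 and Cd34 were above 0 and Tcf7l1, Lgr5 and Lgr6 below 0 in all 4 comparisons of tumors with skin. For Cd34 in fl/fl this rested on tumor replicate 1. No tested member was called between genotypes.

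Counted over the 7 tested members, 1 was called between tumors and mock skin in fl/fl (Sox9, higher), where 4.11% of all genes tested were called, 2.22% higher and 1.88% lower. In ΔK14 3 were called (Sox9 and Cd34 higher, Lgr5 lower), against 14.3% of all genes, 7.05% higher and 7.22% lower. Between tumors and treated skin 3 were called in fl/fl (Sox9 higher, Tcf7l1 and Lgr5 lower), against 18% of all genes, 7.5% higher and 10.5% lower. In ΔK14 3 were called (Cd34 higher, Lgr5 and Lgr6 lower), against 26% of all genes, 10.5% higher and 15.5% lower.

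The members did not share a direction. Their median log2 change was 0.02 in fl/fl and -0.31 in ΔK14 against mock skin, and 0.97 and -0.77 against treated skin, beside medians from -0.06 to -0.02 over all genes. Groups did not overlap for Sox9 and Lgr5 between tumors and mock skin in fl/fl, as for 32.4% of all genes, and for Sox9, Foxc1, Cd34, Lgr5 and Lgr6 in ΔK14, as for 52.9% of all genes. Between tumors and treated skin they did not overlap for Sox9, Tcf7l1 and Lgr5 in fl/fl, as for 45.9% of all genes, and for Sox9, Cd34, Lgr5 and Lgr6 in ΔK14, as for 52.2% of all genes. The comparisons of tumors with mock and with treated skin share the tumor libraries.

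Single libraries moved these counts, and the counts over all genes with them. Without mock fl/fl replicate 1, 2 members were called between tumors and mock skin in fl/fl, against 21% of all genes, and without replicate 2 or 3 Sox9 lost its call, where 0.181% and 0.31% of all genes were called. In ΔK14, 6 members were called without mock replicate 1, against 28.1% of all genes. All 3 calls were lost without tumor replicate 1 or 3, where 2.75% and 1.51% of all genes were called, and Cd34 alone kept its call without tumor replicate 2, against 0.709% of all genes. Between tumors and treated skin, 6 members were called in fl/fl without tumor replicate 1, against 24.3% of all genes, and 5 in ΔK14 without treated replicate 3, against 29.2% of all genes.

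Between treated and mock skin no tested member was called in fl/fl or in ΔK14, and 0% of all genes were called in either (edgeR quasi-likelihood test). At an unadjusted p under 0.05 there were 4 of 7 members and 913 of 16601 genes in fl/fl, and 0 members and 763 of 15891 genes in ΔK14. DESeq2 called 2 members, Sox9 and Lgr5, among 118 genes in fl/fl, and 0 members and 60 genes in ΔK14. The 4 in fl/fl were Sox9 with a log2 difference of 1.03 ± 0.16, Lgr5 with 2.25 ± 0.32, Tcf7l1 with 1.12 ± 0.34 and Cd34 with 1.05 ± 0.34, and for these 4 the groups did not overlap, which 10.2% of all genes did. Mock fl/fl replicate 1 decided this count. Without it 4 members were called in fl/fl, against 15.1% of all genes: Lgr5 by 2.69, Sox9 by 1.05 and Tcf7l1 by 1.39 above mock skin, and Nfatc1 by -1.42 (edgeR adjusted p from 0.000339 to 0.0209). In ΔK14 the tested members differed between -0.42 and 1.36, the latter for Foxc1. Lhx2 was 1.02 ± 0.60 above mock skin in fl/fl and 0.33 ± 0.57 in ΔK14, and Tbx1 2.25 ± 0.51 and 1.13 ± 0.41, given without a test. In fl/fl these were 2.09 for Lhx2 and 3.11 for Tbx1 without mock replicate 1, and in ΔK14 Tbx1 was 1.86.

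Between ΔK14 and fl/fl no tested member was called at any stage. Of all genes 0% were called in mock skin, 0.00616% in treated skin and 0.0284% in tumors, where 0.0213% were higher and 0.00711% lower. At an unadjusted p under 0.05 there were 0 members and 253 of 15920 genes in mock skin, 1 member and 901 of 16232 genes in treated skin, and 4 members and 1975 of 14067 genes in tumors. DESeq2 called none of the 7 at any stage, and 3, 36 and 345 of all genes. With the replicate number as a block, edgeR called 110 genes in mock skin, no tested member among them. In mock skin the members' log2 differences ran from -0.89 for Foxc1 to 0.27 for Lgr5. In treated skin Lgr5 differed by -1.05 ± 0.34 (edgeR adjusted p = 0.897), and it alone had groups that did not overlap there, as had 11.7% of all genes. Without the filter on low counts Lgr5 was called in treated skin and Cd34, Lgr5, Nfatc1 and Lgr6 in tumors, when 218 and 1393 of all genes were called at these stages in place of 1 and 4.

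In tumors Sox9 differed between genotypes by -0.94 ± 0.28 (edgeR adjusted p = 0.238), Lgr5 by -1.82 ± 0.59 (edgeR adjusted p = 0.258), Nfatc1 by -1.65 ± 0.61 (edgeR adjusted p = 0.300) and Foxc1 by -1.04 ± 0.42 (edgeR adjusted p = 0.330). Sox9 alone of the 7 had groups that did not overlap, as had 17.9% of all genes. The fl/fl tumor replicate 1 lay nearer to the ΔK14 tumors than to the other fl/fl tumors in all 7 tested members, and also in the basal keratin Krt5, at 12120 CPM against 9007 to 10083 CPM in ΔK14 tumors and 2618 and 2807 CPM in the other fl/fl tumors. That library had the lowest total count, 2808550, and held 5 reads of Lgr5, 9 of Lgr6 and 11 of Tcf7l1. Its Zfp36 level was 231 CPM, within the range of the fl/fl tumors. Without that library 5 members were called, against 16.9% of all genes: Sox9 at -1.11, Foxc1 at -1.37, Nfatc1 at -2.07 and Lgr5 at -2.20 were lower in ΔK14, and Cd34 at 4.39 was higher (edgeR adjusted p from 0.000785 to 0.00426). It was singled out on the levels of these same members, so the calls without it are a description. No tested member was called when any other tumor library was left out, where at most 0.0455% of all genes were called. In Tbx1 fl/fl tumor replicate 1 did not lie nearer to the ΔK14 tumors, with the lowest level of the fl/fl tumors, at 8.53 CPM.

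No interaction of genotype with stage was called for a tested member (edgeR quasi-likelihood test). Of all genes 0% were called for treated against mock skin and for tumors against mock skin, and 0.0118% for tumors against treated skin. In that order, at an unadjusted p under 0.05, there were 0, 2 and 1 of the 7 members and 257 of 17694, 1423 of 17388 and 2243 of 17017 genes. DESeq2 called none of the 7, and 0, 28 and 206 of all genes. The members' interaction contrasts for tumors against treated skin ran from -1.73 for Nfatc1 to 2.07 ± 1.35 for Cd34, and Cd34 was called at 4.98 without fl/fl tumor replicate 1 (edgeR adjusted p = 0.00592), against 7.53% of all genes.

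**Figure D3:**
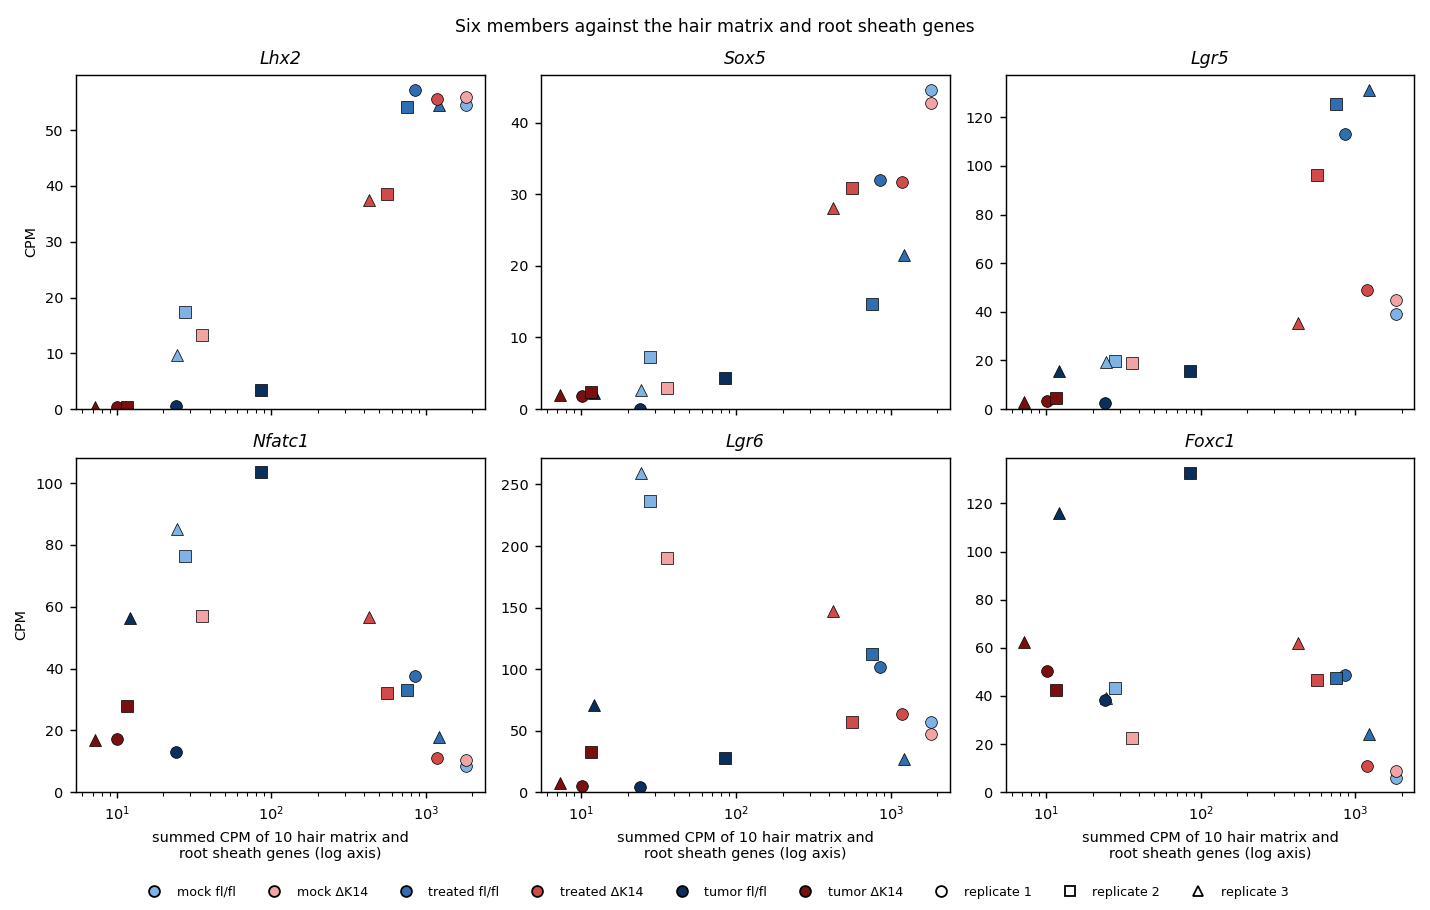
Level of 6 members in CPM against the summed CPM of 10 hair matrix and root sheath genes (log axis) in the 17 libraries, by group color and replicate symbol. Sox5 was highest in the mock libraries at 1827 and 1829 CPM of the sum and Lgr6 in the 3 mock libraries at 24.5 to 35.7 CPM, with tumors at 7.22 to 85.2 CPM.

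Compared per kilobase of annotated exon, Sox9 had the highest mean level of the 10 members in 5 of the 6 groups, from 20.3 CPM per kb in mock ΔK14 to 118 CPM per kb in fl/fl tumors. In mock fl/fl skin Lgr6 was first, at 26.9 ± 16.2 CPM per kb (SD, n = 3), and Sox9 second, at 17.02 ± 1.10 CPM per kb (SD, n = 3), a difference within the spread of Lgr6. Sox5 was last or next to last in every group, from 0.140 CPM per kb in ΔK14 tumors to 2.10 CPM per kb in treated ΔK14 skin. Lhx2 went from the third level in treated skin of either genotype, at 12.6 ± 0.368 CPM per kb in fl/fl and 10.001 ± 2.31 CPM per kb in ΔK14 (SD, n = 3), to the ninth in fl/fl tumors and the last in ΔK14 tumors, at 0.0903 ± 0.0101 CPM per kb (SD, n = 3). Cd34 went the other way, from the ninth level in all 4 skin groups to the second in ΔK14 tumors, at 19.5 ± 11.996 CPM per kb (SD, n = 3).

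The genes whose profiles over the 17 libraries lay nearest to those of Lhx2, Sox5 and Tbx1 were found among 18242 genes, by the root mean square difference between log2 CPM profiles, each centered on its own mean. Nearest to Lhx2 were Cldn10, a claudin of tight junctions, at 0.56, A430110C17Rik at 0.73 and the homeobox gene Hoxd8 at 0.79, where the median gene was at 2.74. Cldn10 ranged from 2.14 CPM at most in tumors to 47.5 CPM in mock fl/fl replicate 1. Nearest to Sox5 were Gm38082 at 0.55, Fam26e at 0.59 and Fras1, an extracellular matrix gene of the epidermal basement membrane, at 0.64, with a median of 2.04 over all genes. A430110C17Rik and Gm38082 lie inside Cux1 on its strand, so their reads may belong to that gene. Nearest to Tbx1 were Plppr2 at 0.50 and the basement membrane genes Hspg2 (perlecan) at 0.51 and Pxdn (peroxidasin) at 0.52, with a median of 1.19. Hspg2 was at 92.3, 106 and 61.6 CPM in fl/fl tumors and at 186, 312 and 332 CPM in ΔK14 tumors, so its genotypes did not overlap there either. These likenesses were ranked over the same libraries that chose Lhx2, Sox5 and Tbx1.

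**Figure D4:**
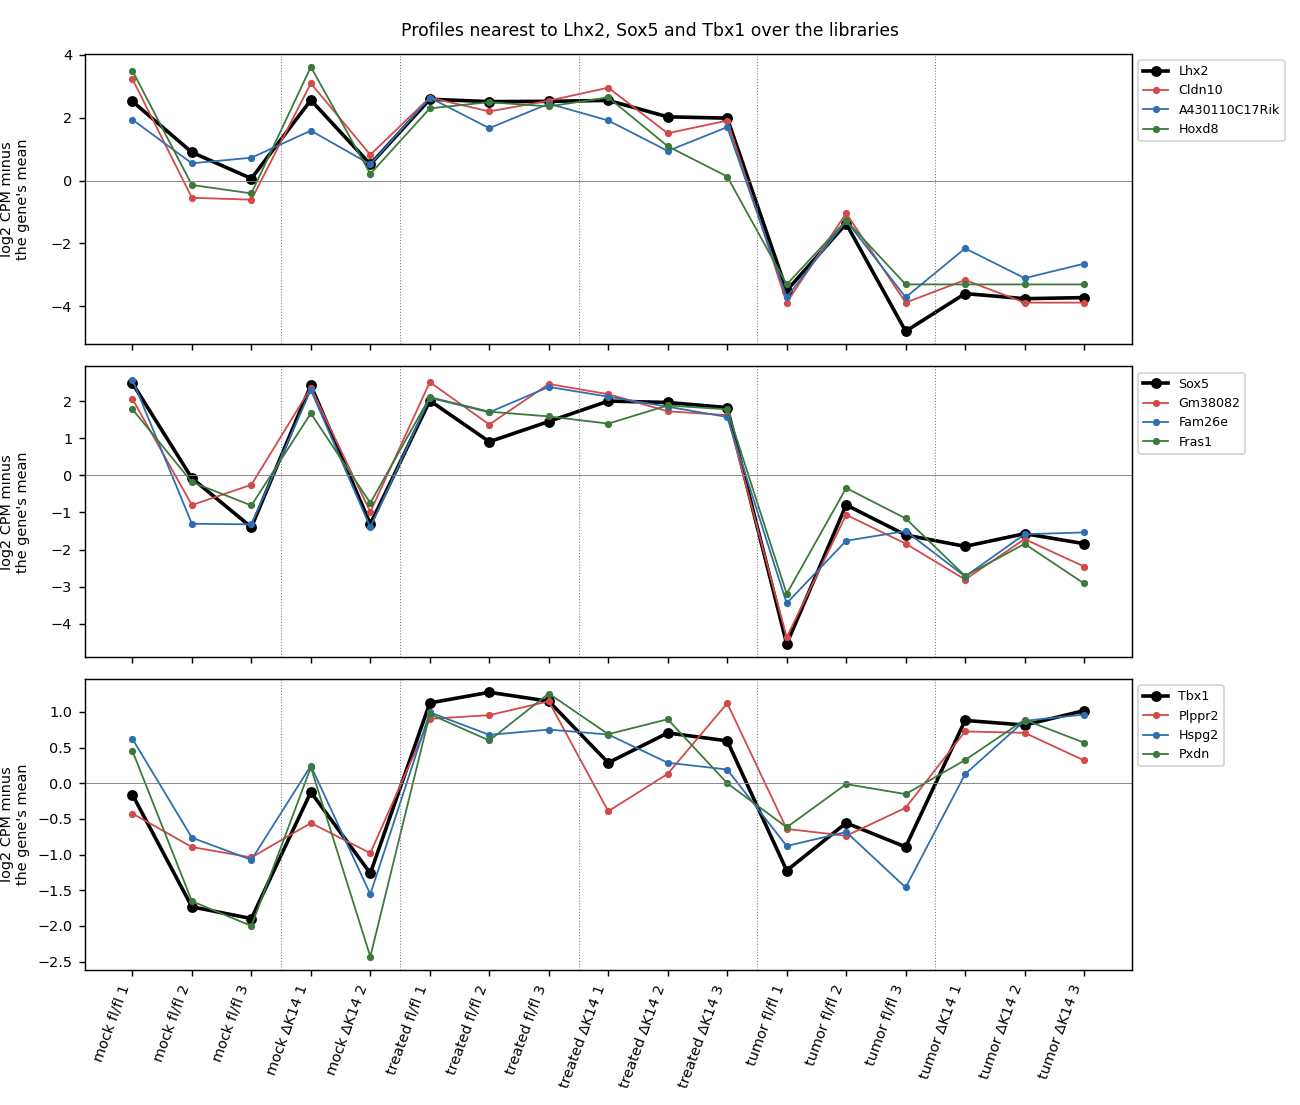
Centered log2 CPM of Lhx2, Sox5 and Tbx1 (black) and of the 3 nearest profiles of each (colors) over the 17 libraries, with groups parted by dotted lines. The Lhx2 and Sox5 profiles dropped in all 6 tumors, and the Tbx1 profiles were higher in ΔK14 than in fl/fl tumors.

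Around the members stood 43 further genes of the hair follicle stem cell program: other regulators, markers, secreted or cell surface factors, and paralogs of the members. This list too was chosen with earlier results of these data known. Between tumors and treated skin 17 of 34 tested were called in fl/fl, 4 higher and 13 lower, and 18 of 33 in ΔK14, 7 higher and 11 lower, where 18% and 26% of all genes were called. Between tumors and mock skin 4 of 34 were called in fl/fl, 2 higher and 2 lower, against 4.11% of all genes, and 16 of 33 in ΔK14, 6 higher and 10 lower, against 14.3%. The list's median log2 change was -0.47 in fl/fl and -0.50 in ΔK14 against treated skin, beside -0.02 and -0.03 over all genes. No gene of the list was called between genotypes or between treated and mock skin (edgeR quasi-likelihood test), where 0 to 8 of its genes per comparison had an unadjusted p under 0.05, beside 253 to 1975 of all genes.

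Among the regulators, the Hedgehog effectors Gli1 and Gli2 fell from treated skin to tumors. Gli1 was at 31.3, 21.1 and 23.4 CPM in treated fl/fl and at 0.502, 3.05 and 0.656 CPM in fl/fl tumors, a log2 change of -3.87 ± 0.52 (edgeR adjusted p = 0.00317). In ΔK14 it was at 48.3, 23.5 and 15.2 CPM in treated skin and at 0.895, 0.908 and 0.190 CPM in tumors, a change of -5.51 ± 0.62 (edgeR adjusted p = 0.000659). Tumors and treated skin were apart in each genotype. In mock skin Gli1 was at 44.2 and 38.2 CPM in the matrix-rich libraries and at 5.70, 4.06 and 10.8 CPM in the others. Gli2 was at 42.1 and 31.1 CPM in the matrix-rich libraries and at 13.4, 8.80 and 9.01 CPM in the others. From treated skin to tumors Gli2 changed by -3.42 ± 0.25 in fl/fl (edgeR adjusted p = 0.000981) and by -2.13 ± 0.26 in ΔK14 (edgeR adjusted p = 0.000922). The vitamin D receptor gene Vdr changed by -1.49 ± 0.21 in fl/fl (edgeR adjusted p = 0.00359). Of the 9 regulators, 3 were called against treated skin in fl/fl and 4 in ΔK14, all lower in tumors. Of all genes 18% and 26% were called there, 10.5% and 15.5% lower. Against mock skin 0 regulators were called in fl/fl and 2 in ΔK14, lower in tumors, beside 4.11% and 14.3% of all genes.

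Markers of the bulge and of the basal layer divided. Plet1, a surface marker of the upper follicle, rose in all 4 comparisons of tumors with skin, by 3.97 ± 0.53 on the log2 scale against treated skin in fl/fl (edgeR adjusted p = 0.00312) and by 3.12 ± 0.48 in ΔK14 (edgeR adjusted p = 0.00209). The integrin genes Itga6 and Itgb6 rose against treated skin in each genotype, Itga6 by 1.76 ± 0.38 in fl/fl (edgeR adjusted p = 0.0160) and by 2.42 ± 0.35 in ΔK14 (edgeR adjusted p = 0.00171). Neither was called higher than in mock fl/fl skin. There Itga6 was at 220, 1002 and 1315 CPM, overlapping the fl/fl tumors at 1878, 968 and 701 CPM. In ΔK14 it was at 253 and 750 CPM in mock skin and at 2027 to 2393 CPM in tumors. Cd200, a surface protein of the bulge, fell against treated skin, with changes of -2.58 ± 0.34 in fl/fl (edgeR adjusted p = 0.00317) and -3.44 ± 0.49 in ΔK14 (edgeR adjusted p = 0.00171). Hopx, a homeodomain-only gene of quiescent stem cells, was at 42.8 to 73.7 CPM in all skin libraries and at 5.37 to 25.6 CPM in tumors, and it fell in all 4 comparisons. Krt15 fell in 3 of the 4, by -3.14 ± 0.68 against mock fl/fl skin (edgeR adjusted p = 0.0492), and its change against treated ΔK14 skin was -1.11 ± 0.45 (edgeR adjusted p = 0.0818). Lrig1, a feedback inhibitor of EGF receptors in the upper follicle, was not called in any comparison, and Krt24 was at most 6.85 CPM and too low to be tested with tumors.

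Of the secreted and cell surface genes, Fst, which encodes the activin inhibitor follistatin, rose in all 4 comparisons of tumors with skin. It was at 39.8 to 78.1 CPM in the 11 skin libraries, at 658, 405 and 367 CPM in fl/fl tumors and at 832, 1160 and 1413 CPM in ΔK14 tumors, so that every tumor lay above every skin library. The log2 change against treated skin was 2.84 ± 0.28 in fl/fl (edgeR adjusted p = 0.00132) and 3.96 ± 0.25 in ΔK14 (edgeR adjusted p = 0.000165). Dkk3, a secreted protein of the Dickkopf family, rose against treated skin in ΔK14 by 1.80 ± 0.36 (edgeR adjusted p = 0.00574). Wif1, a Wnt inhibitor, fell in ΔK14 with a change of -4.90 ± 0.60 (edgeR adjusted p = 0.000939), and like Sox5 it was low in the mock libraries poor in matrix genes, at 0.967 to 5.89 CPM.

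Among the paralogs, Lef1, the Wnt-activated relative of Tcf7l1, fell from 73.5 to 164 CPM in treated ΔK14 skin to 0.224 to 1.52 CPM in tumors, a log2 change of -6.95 ± 0.52 (edgeR adjusted p = 0.000173). In mock skin it was at 199 and 194 CPM in the matrix-rich libraries and at 2.32 to 5.89 CPM in the others, and it is known as a gene of the hair matrix as well. Lgr4, the widely expressed relative of Lgr5 and Lgr6, fell against treated skin, by -2.16 ± 0.45 in fl/fl (edgeR adjusted p = 0.0137) and by -2.28 ± 0.24 in ΔK14 (edgeR adjusted p = 0.000473). The relatives of Lhx2 on the list, Lhx6 and Lhx9, were too low to be tested in any comparison. Sox6, the close relative of Sox5, ran opposite to it in mock skin, at 122, 159 and 124 CPM in the libraries poor in matrix genes and at 12.9 and 10.02 CPM in the others. It was called lower in fl/fl tumors than in treated skin, with a change of -2.30 ± 0.71 (edgeR adjusted p = 0.0499). These groups overlapped, with treated replicate 3 at 6.67 CPM and tumor replicate 1 at 9.03 CPM. Sox6 was named after its values had been seen.

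**Figure D5:**
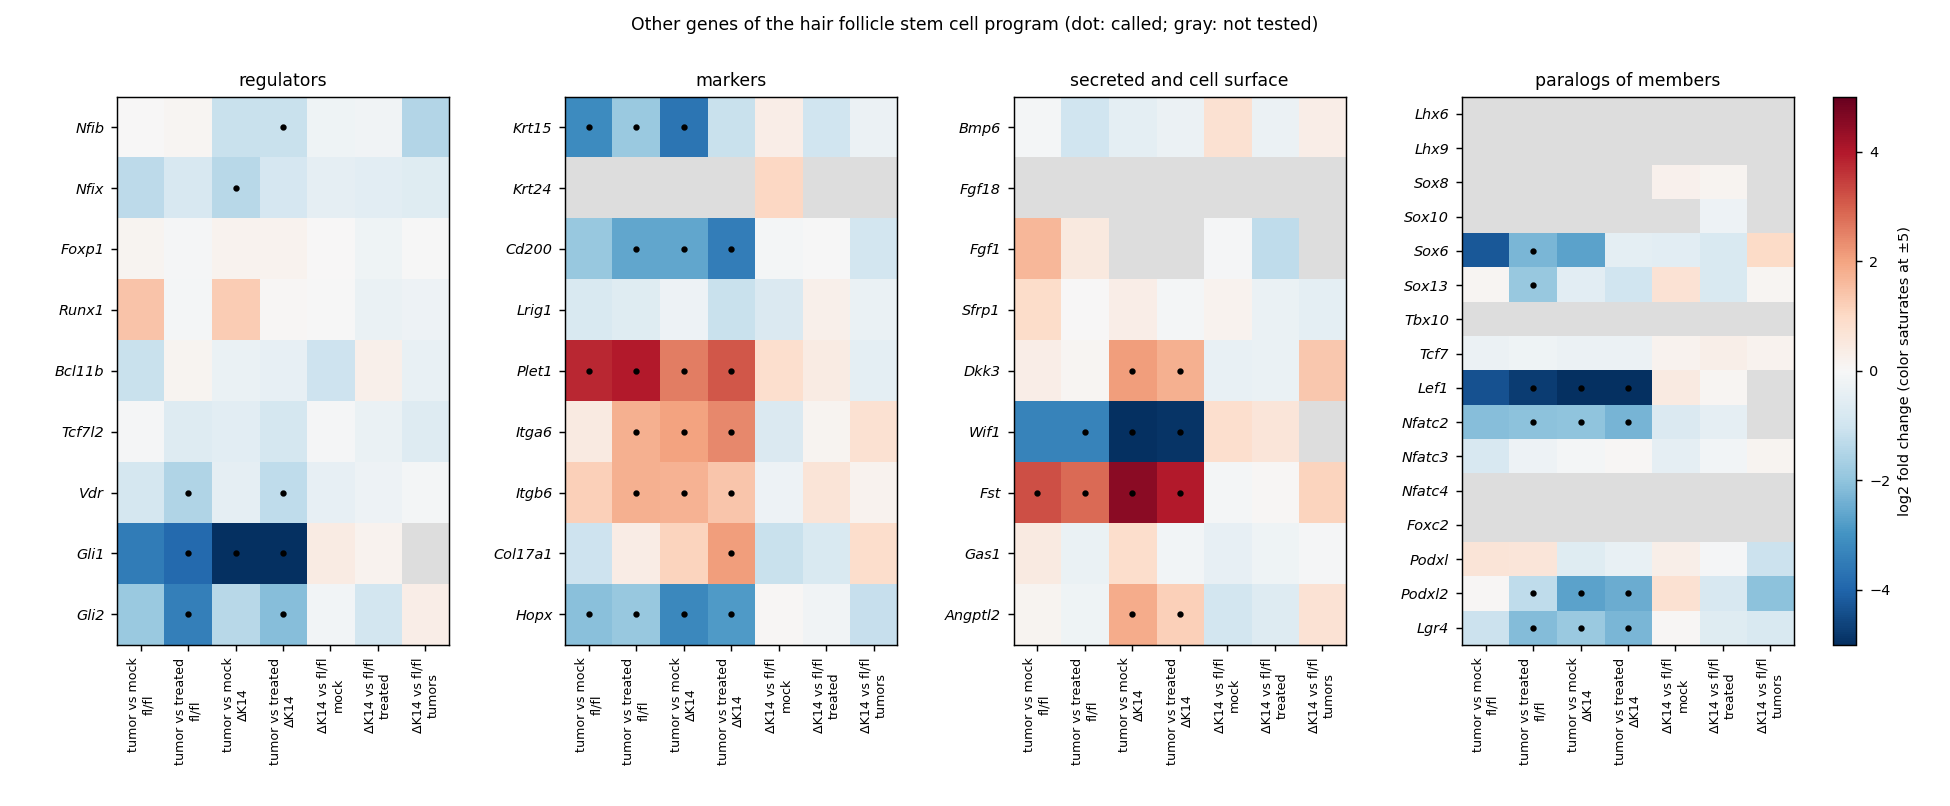
Log2 fold change of the 43 further genes of the program in 7 comparisons (color, saturating at the ends of the scale), with a dot for each call and gray where a gene was too low to be tested. Plet1, Fst, Itga6 and Itgb6 were higher and Gli1, Lef1, Hopx, Cd200 and Lgr4 lower in tumors than in treated skin of either genotype. The 3 columns for genotype hold no dot.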

How the data were processed

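Per the labels and the methods of the study, libraries came from the Ovation SoLo system and were sequenced on an Illumina HiSeq. The deposited table, the authors' own, holds raw counts for each Ensembl gene. The submitters' processing notes name mm10, Trimmomatic 0.36, STAR 2.5.3, HTSeq 0.9.1 and DESeq2 with no order. The annotation release, strand setting and handling of duplicates are not given in the sources used here. No column lay outside the design, and 1 of a pair of identical columns was dropped.

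Each pair of groups was fitted alone with edgeR 4.0.16 (limma 3.58.1, R 4.3.3): filterByExpr, TMM scaling and the two-sided quasi-likelihood F test, adjusted by Benjamini-Hochberg over all genes tested. Interactions were contrasts over 4 groups. The standard error is the log2 fold change divided by the root of F. CPM used TMM sizes of the 17 libraries, and profiles a prior count of 2. Of the gene IDs, 52489 were found in GENCODE M21 (GRCm38, the same assembly as mm10). The tests were tried on simulated data.

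The members and lists were chosen with earlier results of these data known. Named were all members, the called list genes with the smallest p (up to 4 in each direction in a comparison) and Krt15, Krt24, Cd200, Lrig1 and Gli1. Some genes that the rule allows are not printed, and the values of Sox6, Lhx6, Lhx9 and Wif1 were added after they had been seen. Alternatives were DESeq2 1.42.0, all libraries in 1 fit, RLE in place of TMM, no filter on low counts, the replicate number as a block, a separate term for mock replicate 1, and leaving out each library.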

Additional observations from a re-analysis of the deposited data

How the results depend on the processing

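Of the values under alternatives, 767 were rated the same, 42 gained and 13 lost a call, 49 moved and 4 changed sign. For log2 changes of tested members, the same meant direction and side of the threshold. For called counts it meant equal or within a fixed ratio. For Lhx2, Sox5 and Tbx1 it meant a shift within the combined SD of the groups, with no threshold. Small log2 changes, those for genotype in mock skin and interactions of single members were not rated. Among called counts, DESeq2 gave 2 members for treated against mock skin in fl/fl, 2 for tumors against mock skin in fl/fl and 5 in ΔK14, and of the list of 43 genes 2 for genotype in tumors and 12 for tumors against mock skin in fl/fl. All libraries in 1 fit gave 1 and 12 for the last pair. Without the filter on low counts these were 5 and 13, the list had 2 for treated against mock skin in ΔK14, and members numbered 1 for genotype in treated skin, 4 for genotype in tumors, 1 for treated against mock skin, 4 for tumors against mock skin and 5 for tumors against treated skin in fl/fl, 5 for tumors against mock skin in ΔK14 and 3 for the interaction with tumors against treated skin. The counts over all genes moved as well. DESeq2 called 118 genes for treated against mock skin in fl/fl, against 0. For tumors against mock skin in fl/fl and ΔK14 it called 2201 and 2805, against 632 and 2144. For genotype in tumors DESeq2 called 345 genes and all libraries in 1 fit 122, against 4. That fit called 3205 for tumors against mock skin in fl/fl. Without the filter 218 and 1393 were called for genotype in treated skin and tumors, against 1 and 4. For treated against mock skin 30 were in fl/fl and 212 in ΔK14, against 0 in each. Without the filter tumors against mock skin in fl/fl and ΔK14 gave 2595 and 4154 genes, against 632 and 2144. Tumors against treated skin in fl/fl gave 4316 and the interaction with that change 1003, against 2764 and 2. The causes of these changes were not tested.

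Leaving out each library gave 0 to 5 members for genotype in tumors (0% to 16.9% of all genes), 0 to 4 for treated against mock skin in fl/fl (0% to 15.1%), 0 to 2 for tumors against mock skin (0.181% to 21%) and 3 to 6 for tumors against treated skin in fl/fl (7.21% to 24.3%), 0 to 6 (0.709% to 28.1%) and 2 to 5 (17.5% to 29.2%) for these in ΔK14, and 0 to 1 for the interaction with tumors against treated skin. The list gave 0 to 9 for genotype in tumors, 0 to 12 for treated against mock skin, 0 to 11 and 10 to 18 for tumors against mock and treated skin in fl/fl, and 2 to 18 and 13 to 20 in ΔK14. Cd34 ran from -0.87 to 2.62 for tumors against mock skin and from -1.93 to 1.57 against treated skin in fl/fl, negative only without tumor replicate 1. Nfatc1 ran from -1.49 to 0.997 for tumors against mock skin in ΔK14. Leaving out a mock ΔK14 library left 1 there, assumed to vary like the tumors.

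The labels give no shared source for equal replicate numbers, and in no comparison with 3 pairs was every correlation of same-numbered deviations over 0.1. With 2 pairs both were over 0.1 between genotypes in mock skin (0.782 and 0.569) and for treated against mock skin in ΔK14 (0.569 and 0.141), where the replicate block called 110 and 43 genes in place of 0 and none of the 7 members. With the replicate block the list had 1 call for genotype in mock skin. For tumors against mock skin the list had 2 in fl/fl and 6 in ΔK14. Of all genes the block called 244 and 938 there, against 632 and 2144 without it. With the block Cd34 in fl/fl tumors against treated skin was -0.45. Sox9 between ΔK14 tumors and mock skin, at 1.60, was not called with the block (edgeR adjusted p = 0.0655), and Lgr6 there, at -2.89, was (edgeR adjusted p = 0.00810). Between ΔK14 tumors and treated skin the block also called Sox9 at 1.01 (edgeR adjusted p = 0.0192). All libraries in 1 fit called these too, Lgr6 at -2.96 (edgeR adjusted p = 0.0498) and Sox9 at 1.03 (edgeR adjusted p = 0.0192), but not Lgr6 between ΔK14 tumors and treated skin, at -2.54 (edgeR adjusted p = 0.0578).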
